A study of Mus musculus with 8 samples.

Results

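Kmt2d, Crebbp, Ep300, Ezh2, Eed, Suz12, Kdm1a, Hdac3, Tet2 and Dnmt1 encode enzymes and subunits that write or remove marks on histones and DNA and that have known roles in germinal centres and lymphoma. The 10 genes were chosen by symbol from a table of 55421 gene identifiers. All 10 were found and all 10 passed the filter on low counts, as did 12997 genes in all. RNA was sequenced in 8 bulk libraries of splenic germinal centre B cells of C57BL/6 mice aged 8 to 10 weeks, taken at day 10 after immunization. The 4 groups were Smarca4+/- CC, Smarca4+/+ CC, Smarca4+/- CB and Smarca4+/+ CB, with 2 libraries in each, where the labels' CC and CB are read as centrocytes of the light zone and centroblasts of the dark zone. Smarca4 encodes the motor subunit BRG1 of SWI/SNF remodelling complexes, and the Smarca4+/- mice carried 1 intact copy. The labels give neither how the allele was made nor what drives its loss, nor which markers separated CC and CB, nor whether the replicates were different mice. The p-values therefore reflect how far libraries of a group differ, a spread that may be technical.

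The germinal centre is the site in spleen and lymph node where activated B cells divide and mutate their antibody genes in the dark zone and are selected in the light zone. Methylation of histone H3 at lysine 4 and acetylation of histones mark active enhancers and promoters, while the Polycomb repressive complex PRC2 methylates H3 at lysine 27 and silences genes. In germinal centre B cells PRC2 keeps cell cycle inhibitors and plasma cell genes silent, BCL6 recruits deacetylase complexes to shut off enhancers, and KMT2D and CREBBP oppose that repression. DNMT1 copies DNA methylation at each replication and TET2 oxidises methylcytosine, and the genes for KMT2D, CREBBP, EP300, EZH2 and TET2 are recurrently mutated in human B cell lymphomas.

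The CC libraries were much shallower, with totals of 526353 to 837558 counts against 18357578 to 24341805 in CB, a ratio of the means of 32.7 in favour of CB. In CC the raw counts of the 10 genes ran as low as 14 (Hdac3 and Kdm1a) and as high as 904 (Dnmt1), so that the low members carry wide errors there. A level of 3 counts, taken as the detection limit, equalled 3.58 to 5.70 CPM (counts scaled to a common library total) in CC and 0.123 to 0.163 CPM in CB, without further scaling and for counting error only. The targeted gene Smarca4 stood at 244 and 310.0 CPM in Smarca4+/- CC, against 321 and 315 CPM in Smarca4+/+ CC. In CB it stood at 732 and 700.2 CPM in Smarca4+/-, against 895 and 999.7 CPM in Smarca4+/+. Both Smarca4+/- libraries lay below both Smarca4+/+ libraries in each fraction, but neither difference passed the test (edgeR adjusted p = 0.607 in CC and 1 in CB). All 12 germinal centre B cell markers passed the filter, and their summed level was 3680.2 to 4988 CPM in CC and 5439.8 to 6144 CPM in CB. Markers of other cells were also present in CC: 16 of 17 macrophage markers passed the filter and summed to 1617 to 3723 CPM in CC, against 51.4 to 249 CPM in CB, and the T cell and erythroid lists were likewise higher in all CC libraries. Mitochondrial genes took 2.24% to 5.86% of CC counts and 0.699% to 1.40% of CB counts.

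The promoters of the PRC2 genes Ezh2 and Suz12 and of Dnmt1 are shown because these 3 genes lay lower in CC than in CB in every library and because each window held letters of an E2F site, the element bound by the factors that switch on genes for DNA replication. The 3 were thus chosen on level and letters together. Crebbp and Ep300 also lay lower in every CC library than in every CB library, and their windows held no such letters. The windows run from 250 bases before to 50 bases after a transcript start in RefSeq (build GRCm38.p6) and are written 5′ to 3′ on the gene's strand. Capitals mark matches to TTTCCCGC, TTTGGCGC, TTTCGCGC or TTTGCCGC on either strand. They lie at chr6:47594981-47595280, minus strand (Ezh2), chr11:79992856-79993155, plus strand (Suz12), and chr9:20952574-20952873, minus strand (Dnmt1).
Ezh2 promoter: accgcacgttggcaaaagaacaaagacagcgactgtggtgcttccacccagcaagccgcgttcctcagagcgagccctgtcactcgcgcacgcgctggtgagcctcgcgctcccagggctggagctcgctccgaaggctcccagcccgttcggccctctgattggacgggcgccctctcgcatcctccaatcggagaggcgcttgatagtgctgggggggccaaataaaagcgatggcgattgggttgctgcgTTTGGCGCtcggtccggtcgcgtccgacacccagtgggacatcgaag
Suz12 promoter: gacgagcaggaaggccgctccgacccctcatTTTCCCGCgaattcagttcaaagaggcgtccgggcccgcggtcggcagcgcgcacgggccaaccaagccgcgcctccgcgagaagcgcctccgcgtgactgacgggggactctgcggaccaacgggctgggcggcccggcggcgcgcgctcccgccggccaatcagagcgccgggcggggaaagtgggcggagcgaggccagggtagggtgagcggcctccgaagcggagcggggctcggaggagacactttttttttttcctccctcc
Dnmt1 promoter: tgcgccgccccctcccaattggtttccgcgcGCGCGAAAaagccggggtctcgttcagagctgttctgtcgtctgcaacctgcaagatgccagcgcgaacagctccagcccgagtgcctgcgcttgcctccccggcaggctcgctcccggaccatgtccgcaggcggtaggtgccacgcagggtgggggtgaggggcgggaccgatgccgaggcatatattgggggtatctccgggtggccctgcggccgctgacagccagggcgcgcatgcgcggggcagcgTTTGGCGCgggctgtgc
A match was present in 744 of 32851 mouse promoter windows (2.26%). Among the 9 members with a window in the table, the windows of Ezh2, Suz12 and 1 of the 3 of Dnmt1 held one, and those of Kmt2d, Crebbp, Ep300, Eed, Kdm1a and Tet2 held none. In Ezh2 the match, TTTGGCGC, began 3 bases after the start, and in Suz12 TTTCCCGC began 219 bases before it. Dnmt1 held TTTCGCGC on the opposite strand, shown as GCGCGAAA, 219 bases before the start, and TTTGGCGC 33 bases after it. The CCAAT box (CCAAT, either strand), present in 37.4% of all windows, occurred at 3 places in that Dnmt1 window, where 2 of the matches overlapped, at 3 in Ezh2 and at 1 each in Suz12, Eed and Kdm1a. TTTGAA, the cell cycle homology region bound in mitotic genes, was present in 17.9% of all windows, at 2 places in Eed and at 1 in Suz12 and in another Dnmt1 window. A match describes letters and is no evidence of binding.

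Between the fractions, 9 of the 10 genes were at their lower level in CC in Smarca4+/+ cells, and Tet2 was at its higher level there. Ezh2 and Dnmt1 fell and Tet2 rose in Smarca4+/+ CC (edgeR quasi-likelihood test, Benjamini-Hochberg adjusted p under 0.05), so that 3 of 10 were called where 7.49% of all tested genes were, with 1 higher (3.72% of all genes) and 2 lower (3.76%). An unadjusted p under 0.05 was reached by 8 of 10, against 23.3% of all genes, and DESeq2 called 5 of 10, against 17.1%. The CC and CB libraries did not overlap for any of the 10 genes in Smarca4+/+, against 56.7% of all genes, and 9 of the 10 lay lower against 38.5%. In Smarca4+/- cells 0 of 10 were called, where 3.67% of all genes were (282 higher and 195 lower). That all-gene count rests on single libraries: 0 genes were called without either Smarca4+/- CB library, 48 higher and 16 lower without Smarca4+/- CC replicate 1, and 486 higher and 442 lower without replicate 2. There, 5 of 10 (Crebbp, Ep300, Ezh2, Dnmt1 and Tet2) had an unadjusted p under 0.05, against 18.2% of all genes, and DESeq2 called 2, Ep300 and Tet2, against 11.6%. The CC and CB libraries did not overlap for 7 of 10 in Smarca4+/-, against 53.4% of all genes. The median log2 fold change of the 10 genes, CC over CB, was -0.37 in Smarca4+/- (all genes -0.08) and -0.81 in Smarca4+/+ (all genes -0.19). Another scaling shifts the zero of these comparisons: the all-gene median in Smarca4+/+ was -0.07 with RLE scaling and -0.0069 with total counts. These are bulk libraries, so fewer cells of a type and less RNA per cell cannot be told apart.

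**Figure D1:**
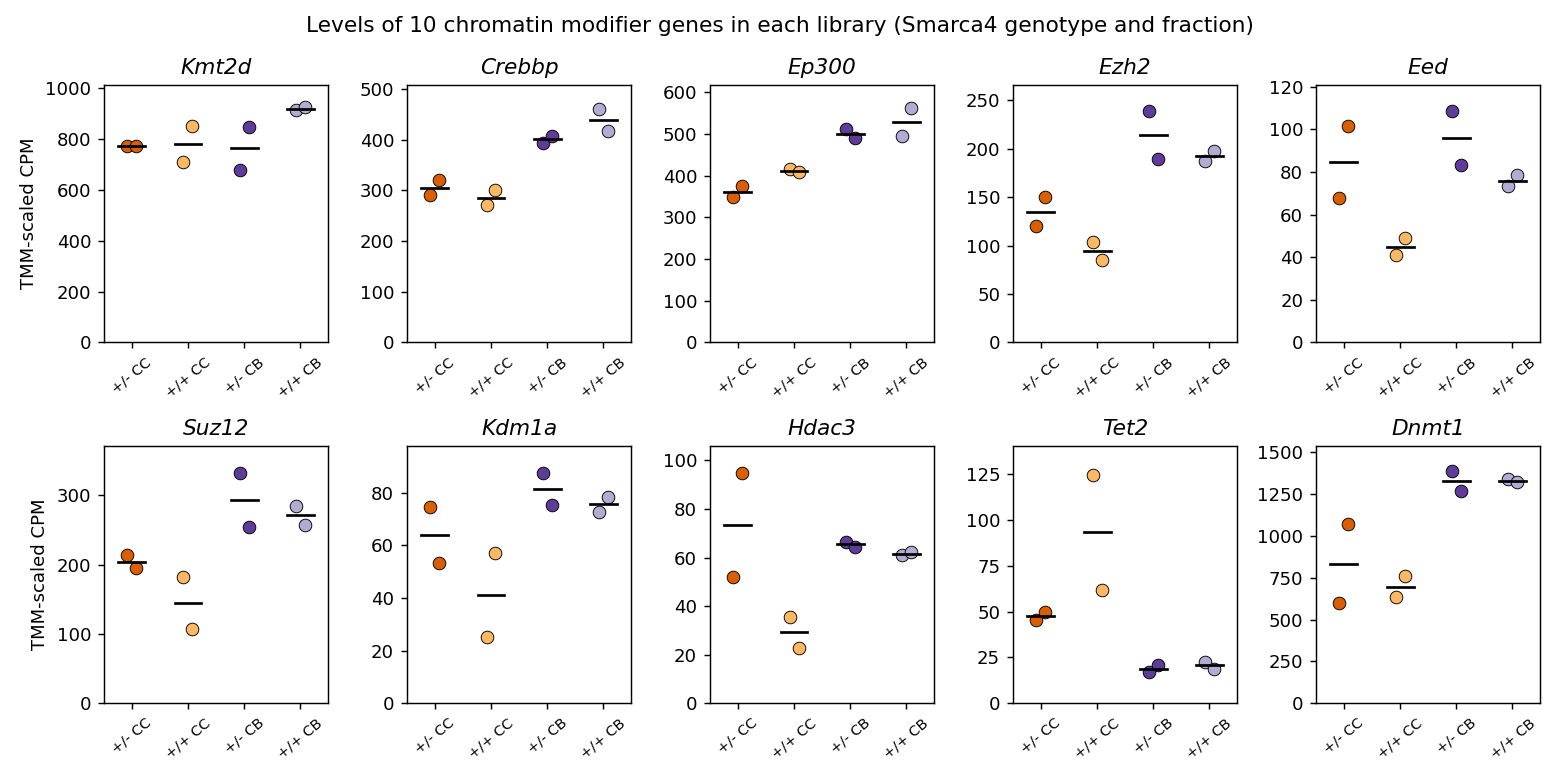
Levels of the 10 genes in TMM-scaled CPM (vertical axis, starting at 0, its own range in each panel) in the 4 groups, with 1 point for each library and a line at the group mean. Dnmt1, Ezh2, Suz12, Ep300 and Crebbp sit lower in all 4 CC libraries than in all 4 CB libraries, Tet2 sits higher, and Kmt2d overlaps.

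**Figure D2:**
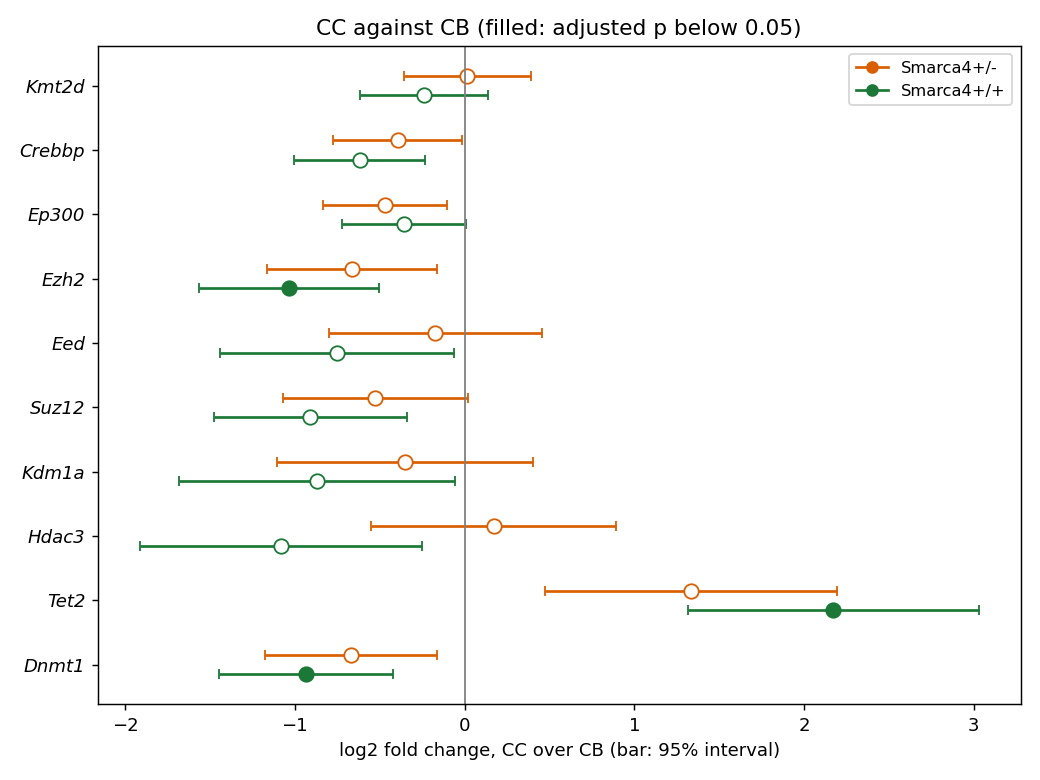
Log2 fold change of CC over CB (horizontal axis) for each gene, with bars for the 95% interval, in Smarca4+/- and Smarca4+/+ cells. Filled points passed an adjusted p of 0.05, which only Ezh2 (-1.03), Tet2 (2.17) and Dnmt1 (-0.93) did, all in Smarca4+/+.

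Kmt2d (ENSMUSG00000048154.17, mm10 chromosome 15, 98831669 to 98871204, minus strand) encodes a main enhancer methyltransferase for H3 lysine 4. It had 771 and 771 CPM in Smarca4+/- CC, 708 and 849.8 CPM in Smarca4+/+ CC, 678 and 847 CPM in Smarca4+/- CB, and 914 and 925 CPM in Smarca4+/+ CB. Its libraries overlapped between all groups other than Smarca4+/+ CB, which stood above the rest. CC over CB, the log2 fold change was 0.02 (SE 0.17, 95% interval -0.36 to 0.39) in Smarca4+/- and -0.24 (SE 0.17, -0.61 to 0.14) in Smarca4+/+, and neither passed the test (adjusted p = 0.971 and 0.421). The interval leaves room for changes of at most 0.61 on the log2 scale in either genotype. Its closest relative Kmt2c, which methylates the same residue, did not pass in either comparison. The ratio of Kmt2d to Kmt2c per exon length was 3.27 and 2.61 in Smarca4+/- CC, 1.63 and 2.60 in Smarca4+/+ CC, 2.39 and 2.98 in Smarca4+/- CB, and 2.61 and 3.01 in Smarca4+/+ CB.

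Of the other genes of H3 lysine 4 methyltransferase complexes, 13 of 14 passed the filter. In Smarca4+/- CC 1 of the 13 was called, where 3.67% of all genes were. In Smarca4+/+ CC 1 rose and 1 fell, where 7.49% of all genes were called. Kmt2a, the founding member of the mixed lineage leukaemia family, fell in CC in both genotypes, by 0.99 on the log2 scale (SE 0.20, adjusted p = 0.0201) in Smarca4+/- and by 0.86 (SE 0.20, adjusted p = 0.0235) in Smarca4+/+. Setd1b, the catalytic subunit of a COMPASS complex, rose by 1.18 (SE 0.29, adjusted p = 0.0315) in Smarca4+/+ CC. In Smarca4+/- it was not called but lay in the same direction, with 75.9 and 66.2 CPM in CC against 35.0 and 37.2 CPM in CB. The median of the list was -0.28 in Smarca4+/- (all genes -0.08) and -0.15 in Smarca4+/+ (all genes -0.19).

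The acetyltransferase genes Crebbp (ENSMUSG00000022521.10, chromosome 16, 4081328 to 4213997, minus strand) and Ep300 (ENSMUSG00000055024.12, chromosome 15, 81585351 to 81652077, plus strand) encode paralogous coactivators that acetylate histones at enhancers. Crebbp had 290.5 and 319 CPM in Smarca4+/- CC, 271 and 300.1 CPM in Smarca4+/+ CC, 394 and 408 CPM in Smarca4+/- CB, and 460.5 and 416 CPM in Smarca4+/+ CB. Ep300 had 349 and 375 CPM in Smarca4+/- CC, 417 and 408 CPM in Smarca4+/+ CC, 512 and 490.3 CPM in Smarca4+/- CB, and 496 and 561 CPM in Smarca4+/+ CB. All 4 CC libraries lay below all 4 CB libraries for both genes. CC over CB, Crebbp had a change of -0.39 on the log2 scale (SE 0.17, adjusted p = 0.257) in Smarca4+/- and -0.62 (SE 0.18, adjusted p = 0.0572) in Smarca4+/+. The same change of Ep300 was -0.47 (SE 0.17, adjusted p = 0.165) in Smarca4+/- and -0.36 (SE 0.17, adjusted p = 0.226) in Smarca4+/+. Neither gene passed the test with edgeR, and DESeq2 called Crebbp in Smarca4+/+ and Ep300 in Smarca4+/-. The ratio of Crebbp to Ep300 per exon length stayed between 0.685 and 0.979 in all 8 libraries, with overlap between the groups.

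All 12 other histone acetyltransferase genes passed the filter. Of these 2 fell in Smarca4+/+ CC, where 7.49% of all genes were called in either direction. In Smarca4+/- CC 0 of 12 were called, where 3.67% of all genes were. Kat2b, which encodes the acetyltransferase PCAF, had 46.6 and 47.3 CPM in Smarca4+/- CC, 0 and 9.79 CPM in Smarca4+/+ CC, 52.2 and 47.5 CPM in Smarca4+/- CB, and 41.1 and 47.5 CPM in Smarca4+/+ CB. The Smarca4+/+ CC values rest on 0 and 6 counts, and the log2 fold change there, CC over CB, was -3.12 (SE 0.67, adjusted p = 0.0191). It was -2.18 without Smarca4+/+ CC replicate 1 and -12.0 without replicate 2, a value that depends on the prior count because the remaining library is at 0. Kat8, which acetylates H4 at lysine 16, had a change of -2.51 on the log2 scale (SE 0.65, adjusted p = 0.0415) in Smarca4+/+, on 3 and 2 counts in CC, which are at and below the detection limit. That call was lost in 10 of 15 other settings, among them RLE scaling (adjusted p = 0.0543) and thinned CB (-1.75, adjusted p = 0.354). In Smarca4+/- Kat8 was also lower in CC, with 7.99 and 4.73 CPM on 6 and 4 counts, against 22.7 and 25.4 CPM in CB. The median of the list was -0.17 in Smarca4+/- (all genes -0.08) and -0.54 in Smarca4+/+ (all genes -0.19).

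The 3 core genes of PRC2 are Ezh2 (ENSMUSG00000029687.16, chromosome 6, 47530139 to 47595341, minus strand), the methyltransferase, and Eed (ENSMUSG00000030619.10, chromosome 7, 89954654 to 89980983, minus strand) and Suz12 (ENSMUSG00000017548.15, chromosome 11, 79993106 to 80034123, plus strand), which the enzyme needs for activity. Ezh2 had 119.9 and 150.2 CPM in Smarca4+/- CC, 103 and 84.8 CPM in Smarca4+/+ CC, 239 and 189 CPM in Smarca4+/- CB, and 187 and 198 CPM in Smarca4+/+ CB. Every CC library lay below every CB library, and the 2 Smarca4+/+ CC libraries were the lowest. In Smarca4+/+ cells Ezh2 fell in CC to 0.488 of its CB level (log2 fold change -1.03, SE 0.24, adjusted p = 0.0263). In Smarca4+/- cells the change was -0.66 (SE 0.23, adjusted p = 0.153). The Smarca4+/+ call was lost with total count scaling (-0.85, adjusted p = 0.0908), when CB was thinned to the CC depth (-0.89, adjusted p = 0.0659) and when only the 2 groups were fitted (-1.02, adjusted p = 0.0649). It was also lost without either Smarca4+/+ CB library, without Smarca4+/+ CC replicate 2, or without either Smarca4+/- CB library. All libraries share the fit and the filter, and the cause of these losses was not tested.

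Suz12 had 213 and 195 CPM in Smarca4+/- CC, 182 and 108 CPM in Smarca4+/+ CC, 333 and 255 CPM in Smarca4+/- CB, and 284 and 257 CPM in Smarca4+/+ CB. Its CC libraries also lay below all CB libraries, with a change of -0.53 on the log2 scale (SE 0.25, adjusted p = 0.293) in Smarca4+/- and -0.91 (SE 0.26, adjusted p = 0.0569) in Smarca4+/+. Eed had 68.0 and 102 CPM in Smarca4+/- CC, 41.0 and 48.9 CPM in Smarca4+/+ CC, 108 and 83.4 CPM in Smarca4+/- CB, and 73.5 and 78.4 CPM in Smarca4+/+ CB. The Smarca4+/+ CC libraries stood apart below the rest, and the Smarca4+/- CC libraries overlapped both CB groups. CC over CB, the change of Eed was -0.17 (SE 0.29, adjusted p = 0.796) in Smarca4+/- and -0.75 (SE 0.31, adjusted p = 0.18) in Smarca4+/+. Eed shares 261 exon bases with E230029C05Rik on the opposite strand. The strand setting of the counting is not given in the sources used here, so reads of the 2 genes may be mixed. The ratio of Suz12 to Ezh2 per exon length lay between 1.71 and 2.40 in all 8 libraries, and that of Eed to Ezh2 between 0.684 and 1.18.

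Of the other PRC2 genes, 9 of 10 passed the filter. In Smarca4+/- CC 1 of the 9 was called, where 3.67% of all genes were. In Smarca4+/+ CC 1 rose and 2 fell, where 7.49% of all genes were called. Mtf2, a Polycomb-like accessory subunit, fell in CC in both genotypes, with a change of -1.70 on the log2 scale (SE 0.29, adjusted p = 0.0105) in Smarca4+/- and -1.75 (SE 0.30, adjusted p = 0.00694) in Smarca4+/+. Its relative Phf19 had 66.6 and 139.6 CPM in Smarca4+/- CC, 57.1 and 52.2 CPM in Smarca4+/+ CC, 223 and 236 CPM in Smarca4+/- CB, and 219 and 211 CPM in Smarca4+/+ CB. Phf19 fell in Smarca4+/+ CC by 1.98 on the log2 scale (SE 0.32, adjusted p = 0.00495). Jarid2, a subunit of the other form of PRC2, rose in Smarca4+/+ CC by 1.11 (SE 0.25, adjusted p = 0.0238). Ezh1, the paralogue of Ezh2 that is kept in resting cells, had 69.3 and 61.5 CPM in Smarca4+/- CC, 74.9 and 13.0 CPM in Smarca4+/+ CC, 28.6 and 33.6 CPM in Smarca4+/- CB, and 36.4 and 31.7 CPM in Smarca4+/+ CB. It did not pass the test. The ratio of Ezh2 to Ezh1 per exon length was 1.93 and 2.72 in Smarca4+/- CC and 1.54 and 7.24 in Smarca4+/+ CC, against 9.31 and 6.28 in Smarca4+/- CB and 5.74 and 6.95 in Smarca4+/+ CB. The ratio was lower in both Smarca4+/- CC libraries than in CB, while of the Smarca4+/+ CC libraries replicate 1 lay below the CB range and replicate 2 within it. Among PRC1 genes, whose products bind the PRC2 mark and ubiquitinate H2A, 20 of 21 passed the filter. Bmi1 alone was called in Smarca4+/+, where 7.49% of all genes were, with a change of 2.40 on the log2 scale (SE 0.57, adjusted p = 0.0286). In Smarca4+/- 0 of 20 were called, where 3.67% of all genes were. The Bmi1 values of Smarca4+/+ CC rest on 26 and 16 counts. That call was lost in 8 of 15 other settings, among them thinned CB (2.58, adjusted p = 0.0889).

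Between CC and CB the levels of Ezh2, Suz12 and Dnmt1 lay lower together with the cell cycle list of 20 genes, whose summed level was 5027 and 6371 CPM in Smarca4+/- CC, 3859 and 3947 CPM in Smarca4+/+ CC, 11156 and 9129 CPM in Smarca4+/- CB, and 8979 and 9442 CPM in Smarca4+/+ CB. Within CC the list sum and Dnmt1 were not ordered alike. Smarca4+/- CC replicate 1 had the lowest Dnmt1 level of all 8 libraries and a higher list sum than both Smarca4+/+ CC libraries. The sum weighs highly expressed genes most, among them Mki67 (1773 CPM in that library, against 1127 and 1024 CPM in Smarca4+/+ CC). Single genes of the list differed: in that library Mcm5 (249 CPM) was the lowest of all CC libraries and Mcm3 (346 CPM) the highest. Of the list's 20 genes 5 fell in Smarca4+/- CC, where 195 of all 12997 genes did. In Smarca4+/+ CC 10 of the 20 fell, where 489 of all 12997 genes did. Its median log2 fold change was -0.85 in Smarca4+/- (all genes -0.08) and -1.13 in Smarca4+/+ (all genes -0.19). Mki67, a marker of dividing cells, fell by 0.92 on the log2 scale in Smarca4+/- (SE 0.19, adjusted p = 0.0224) and by 1.87 in Smarca4+/+ (SE 0.19, adjusted p = 0.000853). The part of cell division in the levels of the 3 genes was not tested.

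Kdm1a (ENSMUSG00000036940.15, chromosome 4, 136550540 to 136602723, minus strand) encodes LSD1, which demethylates H3 lysine 4 within the CoREST complex. Hdac3 (ENSMUSG00000024454.16, chromosome 18, 37935844 to 37955016, minus strand) encodes the deacetylase of the NCoR and SMRT complexes. Kdm1a had 74.6 and 53.2 CPM in Smarca4+/- CC, 25.0 and 57.1 CPM in Smarca4+/+ CC, 87.4 and 75.2 CPM in Smarca4+/- CB, and 72.8 and 78.2 CPM in Smarca4+/+ CB. The CC libraries lay below the CB libraries within each genotype.
The Kdm1a values of Smarca4+/+ CC rest on 14 and 35 counts. CC over CB, the log2 fold change of Kdm1a was -0.35 (SE 0.34, adjusted p = 0.624) in Smarca4+/- and -0.87 (SE 0.37, adjusted p = 0.188) in Smarca4+/+.

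Hdac3 had 52.0 and 94.6 CPM in Smarca4+/- CC, 35.7 and 22.8 CPM in Smarca4+/+ CC, 66.4 and 64.4 CPM in Smarca4+/- CB, and 60.9 and 62.3 CPM in Smarca4+/+ CB. The CB libraries were close together in both genotypes, the Smarca4+/+ CC libraries lay below them, and the Smarca4+/- CC libraries lay on either side. The CC levels rest on 39 and 80 counts in Smarca4+/- and on 20 and 14 counts in Smarca4+/+. CC over CB, the change was 0.17 (SE 0.33, 95% interval -0.55 to 0.89, adjusted p = 0.831) in Smarca4+/- and -1.08 (SE 0.38, -1.91 to -0.25, adjusted p = 0.111) in Smarca4+/+. The ratio of Hdac3 to Hdac1 per exon length was 0.335 and 0.562 in Smarca4+/- CC and 0.193 and 0.145 in Smarca4+/+ CC, against 0.354 and 0.342 in Smarca4+/- CB and 0.356 and 0.351 in Smarca4+/+ CB.

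All 22 genes of the CoREST complex and the other histone demethylases passed the filter. In Smarca4+/+ CC Kdm5b and Kdm6b rose and Rcor1 fell, where 7.49% of all genes were called. In Smarca4+/- CC 0 of 22 were called, where 3.67% of all genes were. Kdm5b, which removes methyl groups from H3 lysine 4, had 16.0 and 11.8 CPM in Smarca4+/- CC, 49.9 and 58.7 CPM in Smarca4+/+ CC, 3.26 and 3.40 CPM in Smarca4+/- CB, and 5.12 and 4.38 CPM in Smarca4+/+ CB, and its log2 fold change in Smarca4+/+ was 3.51 (SE 0.54, adjusted p = 0.00379). The Kdm5b values of Smarca4+/+ CC rest on 28 and 36 counts. Kdm6b, which removes the PRC2 mark, changed by 1.32 (SE 0.34, adjusted p = 0.0405), and Rcor1, the scaffold of CoREST, by -1.08 (SE 0.28, adjusted p = 0.04). In Smarca4+/- both lay in the same direction. Kdm6b had 68.0 and 127 CPM in CC against 38.5 and 53.2 CPM in CB there, and Rcor1 74.6 and 110.0 CPM against 203 and 186 CPM. The interaction called 0 of the 22 genes with edgeR. Of 19 NCoR and SMRT subunits and other deacetylases, all of which passed the filter, Hdac7 alone was called, with -0.92 (SE 0.21, adjusted p = 0.0257) in Smarca4+/+, where 7.49% of all genes were called. In Smarca4+/- Hdac7 had 198.5 and 254 CPM in CC, which overlapped with 241 and 274 CPM in CB.

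Tet2 (ENSMUSG00000040943.12, chromosome 3, 133463679 to 133545139, minus strand) encodes a dioxygenase that starts the removal of DNA methylation. It had 45.3 and 49.7 CPM in Smarca4+/- CC, 125 and 62.0 CPM in Smarca4+/+ CC, 16.8 and 20.9 CPM in Smarca4+/- CB, and 22.5 and 18.8 CPM in Smarca4+/+ CB. All 4 CC libraries lay above all 4 CB libraries, and Smarca4+/+ CC replicate 1 was the highest. The CC values rest on 34 and 42 counts in Smarca4+/- and on 70 and 38 counts in Smarca4+/+. In Smarca4+/+ cells Tet2 rose 4.51-fold in CC (log2 fold change 2.17, SE 0.39, 95% interval 1.32 to 3.03, adjusted p = 0.00823). In Smarca4+/- cells the change was 1.33 (SE 0.39, 0.47 to 2.19, adjusted p = 0.0936), and the genotype by fraction interaction was -0.84 (SE 0.54, adjusted p = 0.618). The Smarca4+/+ call was lost without Smarca4+/+ CB replicate 1 (adjusted p = 0.0705) or replicate 2 (0.101) and when only the 2 groups were fitted (0.0639), and without Smarca4+/+ CC replicate 1 the change was 1.58 (adjusted p = 0.0321). In Smarca4+/- cells Tet2 passed the test without Smarca4+/+ CC replicate 1 (adjusted p = 0.0321) or replicate 2 (0.0261).

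Between CC and CB, markers of other blood cells moved in the same direction as Tet2. Within CC, both Smarca4+/+ libraries lay above both Smarca4+/- libraries for Tet2 and for the T cell and erythroid sums. Tet2 was highest in Smarca4+/+ CC replicate 1, these 2 sums in Smarca4+/+ CC replicate 2, and the macrophage sum in Smarca4+/- CC replicate 1. The macrophage list summed to 3723 and 1617 CPM in Smarca4+/- CC, 3113 and 3063 CPM in Smarca4+/+ CC, 114 and 73.6 CPM in Smarca4+/- CB, and 51.4 and 249 CPM in Smarca4+/+ CB, with 12 of 16 tested markers higher in Smarca4+/- CC and 11 of 16 in Smarca4+/+ CC. The T cell list summed to 268 and 74.5 CPM in Smarca4+/- CC, 558 and 631 CPM in Smarca4+/+ CC, 6.15 and 5.51 CPM in Smarca4+/- CB, and 8.36 and 6.43 CPM in Smarca4+/+ CB, with 7 of 16 and 13 of 16 tested markers higher in CC of the same genotypes. Of all 12997 genes, 282 were called higher in Smarca4+/- CC and 484 in Smarca4+/+ CC. The erythroid list summed to 472 and 128 CPM in Smarca4+/- CC, 635 and 803 CPM in Smarca4+/+ CC, 7.78 and 5.42 CPM in Smarca4+/- CB, and 12.9 and 11.7 CPM in Smarca4+/+ CB. Among the markers of the 3 lists, Vsig4 of macrophages was at 0 in all 8 libraries, and no other was at 0 in all CB libraries or in all CC libraries. The part of these cells in the levels of Tet2 and the other genes was not tested.

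**Figure D3:**
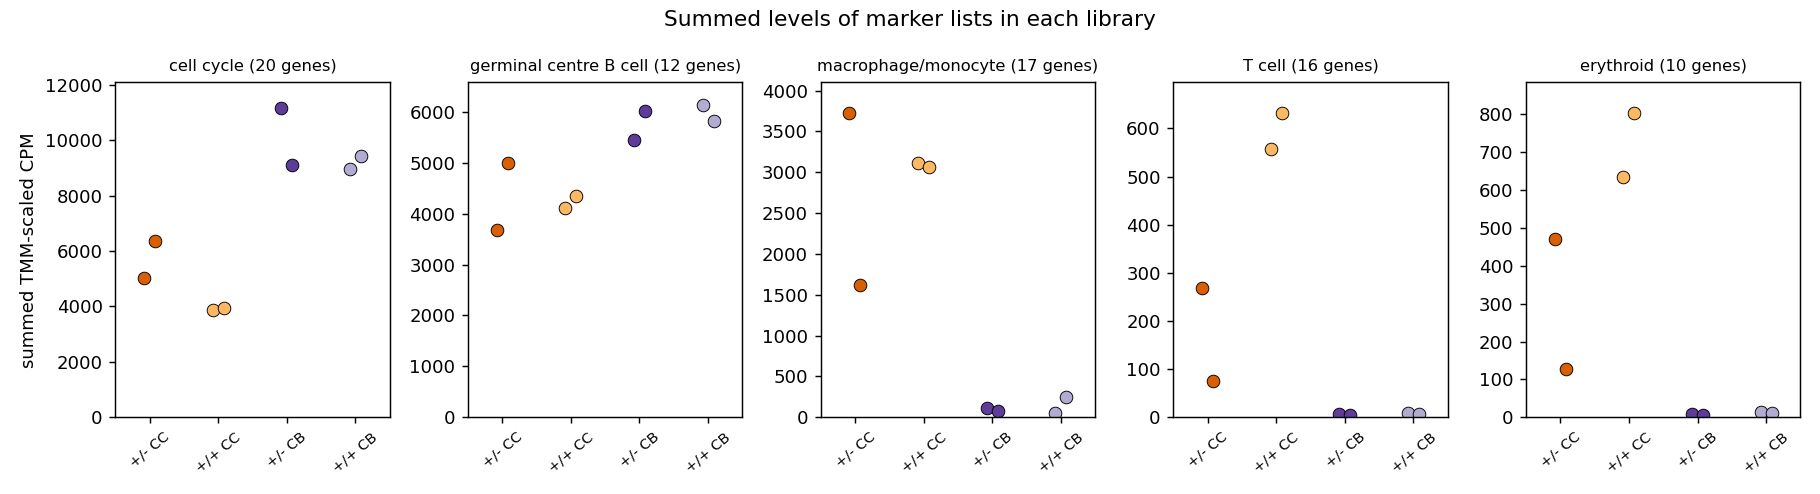
Summed TMM-scaled CPM (vertical axis, starting at 0, its own range in each panel) of the cell cycle list and of 4 marker lists in the 4 groups, with 1 point for each library. Macrophage markers reach 1617 to 3723 CPM in CC, against at most 249 CPM in CB, while the cell cycle list is lower in every CC library.

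Dnmt1 (ENSMUSG00000004099.16, chromosome 9, 20907209 to 20959888, minus strand) encodes the maintenance DNA methyltransferase. It had 601 and 1069 CPM in Smarca4+/- CC, 637 and 758 CPM in Smarca4+/+ CC, 1387 and 1269 CPM in Smarca4+/- CB, and 1342 and 1321 CPM in Smarca4+/+ CB. The CB libraries lay close together, all CC libraries lay below them, and the Smarca4+/- CC libraries were wide apart on both sides of the Smarca4+/+ CC libraries. In Smarca4+/+ cells Dnmt1 fell in CC to 0.524 of its CB level (log2 fold change -0.93, SE 0.23, adjusted p = 0.0353). In Smarca4+/- cells the change was -0.67 (SE 0.23, adjusted p = 0.154), and without Smarca4+/- CC replicate 2 it was -1.17 (adjusted p = 0.00558). The Smarca4+/+ call was lost with RLE scaling (-0.81, adjusted p = 0.0529) and with total counts (-0.75, adjusted p = 0.0798). It was also lost without either library of Smarca4+/+ CC (adjusted p = 0.115 without replicate 1 and 0.0606 without replicate 2), Smarca4+/+ CB (0.190 and 0.203 in that order) or Smarca4+/- CB (0.0860 and 0.0804 in that order).

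All 15 other genes of DNA methylation and its removal passed the filter. In Smarca4+/- CC 1 of the 15 was called, where 3.67% of all genes were. In Smarca4+/+ CC 2 rose and 2 fell, where 7.49% of all genes were called. The methyl-CpG binding genes Mbd2 and Mbd4 fell in Smarca4+/+ CC, with log2 fold changes of -1.10 (SE 0.20, adjusted p = 0.00878) and -1.51 (SE 0.23, adjusted p = 0.00393), and Mbd2 fell in Smarca4+/- CC as well (-1.73, SE 0.20, adjusted p = 0.00262). Mbd4 was not called in Smarca4+/- but lay in the same direction, with 163.9 and 191.7 CPM in CC against 261.8 and 269.5 CPM in CB. The de novo methyltransferase genes rose in Smarca4+/+ CC, Dnmt3b by 2.87 (SE 0.61, adjusted p = 0.0181) and Dnmt3a by 1.55 (SE 0.40, adjusted p = 0.0419). The Dnmt3b values of Smarca4+/+ CC rest on 22 and 24 counts. Dnmt3a had 58.6 and 40.2 CPM in Smarca4+/- CC, 44.6 and 84.8 CPM in Smarca4+/+ CC, 17.1 and 16.7 CPM in Smarca4+/- CB, and 20.2 and 24.1 CPM in Smarca4+/+ CB. In Smarca4+/- its change was 1.54 (SE 0.41, adjusted p = 0.0635). The ratio of Dnmt1 to Dnmt3a per exon length was 23.1 and 60.0 in Smarca4+/- CC and 32.2 and 20.2 in Smarca4+/+ CC, against 183 and 171 in Smarca4+/- CB and 150.0 and 124 in Smarca4+/+ CB. Uhrf1, which brings Dnmt1 to replicating DNA, had 339.8 and 455 CPM in Smarca4+/- CC, 289 and 439 CPM in Smarca4+/+ CC, 591 and 552 CPM in Smarca4+/- CB, and 481 and 517 CPM in Smarca4+/+ CB, and did not pass the test. Tet2 lay below its paralogue Tet3 per exon length in every library, and the ratio of Tet2 to Tet3 per exon length was 0.118 and 0.132 in Smarca4+/- CC and 0.568 and 0.217 in Smarca4+/+ CC, against 0.0637 and 0.0611 in Smarca4+/- CB and 0.0608 and 0.0493 in Smarca4+/+ CB.

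Of the 19 calls among these other complex genes, those of Phf19 and Mbd4 were kept under all 15 other settings. Leaving out Smarca4+/+ CB replicate 1 lost 14 of the 19 and replicate 2 lost 15, Smarca4+/- CB replicate 1 lost 13 and replicate 2 lost 14, Smarca4+/+ CC replicate 1 lost 1 and replicate 2 lost 7, and Smarca4+/- CC replicate 1 lost 2. Fitting only the 2 groups compared lost 13, thinning CB to the CC depth 8, total count scaling 4 and RLE scaling 2, while DESeq2 and the fit without a low count filter lost 0. No direction turned.

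Between genotypes, 0 of the 10 genes were called in CC (0.0231% of all genes were) and 0 in CB (0.0% of all genes). In CC the Smarca4+/- libraries lay above the Smarca4+/+ libraries for Ezh2, Eed, Suz12 and Hdac3 and below them for Ep300 and Tet2, so that 6 of 10 did not overlap, where 32.6% of all genes did not. An unadjusted p under 0.05 was reached by Hdac3, Eed and Tet2 (3 of 10, against 15.2% of all genes), and DESeq2 called 1 of 10, Hdac3, against 6.47% of all genes. In CB 0 of 10 reached it, against 0.646% of all genes, and DESeq2 called 0 of 10, against 0.00928%. There, 4 of 10 did not overlap (Kmt2d and Crebbp lower, Eed and Hdac3 higher in Smarca4+/-), against 32.1% of all genes. The median log2 fold change of the 10 genes, Smarca4+/- over Smarca4+/+, was 0.38 in CC (all genes 0.03) and 0.04 in CB (all genes -0.0044).

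Hdac3 had the widest separation in CC, 73.3 ± 30.2 CPM in Smarca4+/- and 29.2 ± 9.07 CPM in Smarca4+/+ (SD, n = 2 each), which is 1.34 on the log2 scale (SE 0.40, 95% interval 0.47 to 2.21, adjusted p = 0.178). In CB it averaged 65.4 ± 1.46 CPM in Smarca4+/- and 61.6 ± 0.984 CPM in Smarca4+/+ (SD, n = 2 each), a change of 0.09 (SE 0.31, -0.59 to 0.76). The interaction was 1.25 (SE 0.50, unadjusted p = 0.0295, edgeR adjusted p = 0.507), and it was the only 1 of the 10 with an unadjusted p under 0.05, against 9.19% of all genes. The interaction called 0 of 10 by edgeR, where 0.0% of all genes were called, and 0 of 10 by DESeq2, against 2.34%. DESeq2 gave the CC difference of Hdac3 as 1.32 (adjusted p = 0.0256), while leaving out Smarca4+/- CC replicate 2 gave 0.83 (edgeR adjusted p = 0.340).

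Eed averaged 84.8 ± 23.9 CPM in Smarca4+/- CC and 45.0 ± 5.60 CPM in Smarca4+/+ CC (SD, n = 2 each), a change of 0.92 on the log2 scale (SE 0.33, 0.19 to 1.64, adjusted p = 0.235). Its opposite-strand neighbour E230029C05Rik had 33 and 11 counts in Smarca4+/- CC and 0 and 0 counts in Smarca4+/+ CC, and 34 to 53 counts in the much deeper CB libraries. The part of that neighbour in the counts of Eed was not tested. The other core PRC2 genes had smaller differences in CC, 0.53 for Ezh2 (SE 0.25, adjusted p = 0.352) and 0.50 for Suz12 (SE 0.27, adjusted p = 0.387). In CB the differences were 0.34 for Eed (SE 0.27), 0.15 for Ezh2 (SE 0.22) and 0.12 for Suz12 (SE 0.24), each with an adjusted p of 1 (edgeR). The cell cycle list moved in the same direction in CC, with a median of 0.61 over its 20 genes. Of these 0 were called by edgeR and 8 had an unadjusted p under 0.05, against 15.2% of all genes. Mki67 differed by 1.01 there (SE 0.19, adjusted p = 0.1).

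Tet2 averaged 47.5 ± 3.10 CPM in Smarca4+/- CC and 93.4 ± 44.4 CPM in Smarca4+/+ CC (SD, n = 2 each), a change of -0.97 on the log2 scale (SE 0.41, -1.86 to -0.08, adjusted p = 0.296). Without Smarca4+/+ CC replicate 1 the difference was -0.39 (adjusted p = 0.631). T cell and erythroid markers were lower in the same direction, with a median log2 fold change of -1.88 over 16 T cell markers and -1.33 over 9 erythroid markers. The median was -0.29 over 16 macrophage markers, whose summed level overlapped, with 3723 and 1617 CPM in Smarca4+/- CC against 3113 and 3063 CPM in Smarca4+/+ CC. Of the T cell, erythroid and macrophage markers 0 were called by edgeR. An unadjusted p under 0.05 was reached by 5, 2 and 1 of them in that order, against 15.2% of all genes. Their part in the difference of Tet2 was not tested. In CB the change was -0.13 (SE 0.36, -0.91 to 0.65). Dnmt1 differed by 0.26 in CC (SE 0.23, adjusted p = 0.595) and by -0.0041 in CB (SE 0.23, 95% interval -0.50 to 0.50). For Kdm1a the differences were 0.62 in CC (SE 0.40, adjusted p = 0.454) and 0.11 in CB (SE 0.31).

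Kmt2d averaged 771 ± 0.100 CPM in Smarca4+/- CC and 779 ± 100.4 CPM in Smarca4+/+ CC (SD, n = 2 each), a change of -0.01 on the log2 scale (SE 0.17, -0.39 to 0.37). In CB it averaged 763 ± 119.7 CPM in Smarca4+/- and 919 ± 7.93 CPM in Smarca4+/+ (SD, n = 2 each), a change of -0.27 (SE 0.17, -0.64 to 0.10). Crebbp differed by 0.09 in CC (SE 0.18, -0.30 to 0.49) and by -0.13 in CB (SE 0.17, -0.50 to 0.24), and Ep300 by -0.19 in CC (SE 0.17, -0.56 to 0.19) and by -0.08 in CB (SE 0.16, -0.43 to 0.28). These intervals bound the difference of the 3 genes to at most 0.64 on the log2 scale in either fraction. Of the genes in the 7 lists of other complex members, 0 were called between genotypes in CC or CB or by the interaction with edgeR.

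**Figure D4:**
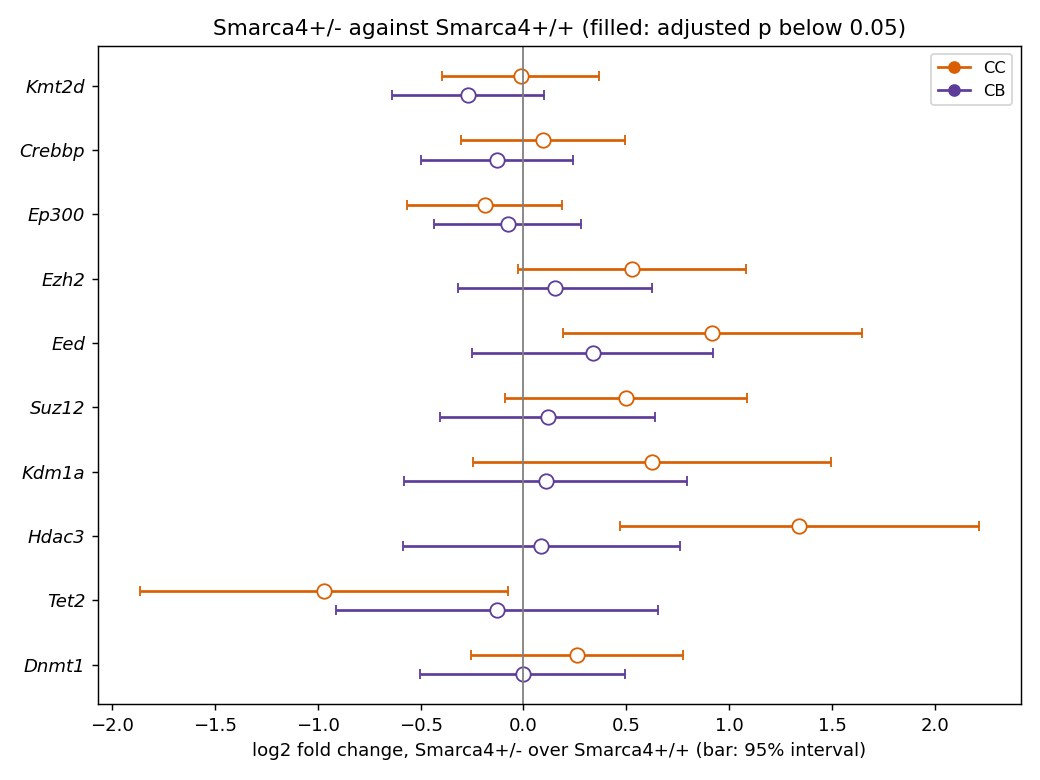
Log2 fold change of Smarca4+/- over Smarca4+/+ (horizontal axis) for each gene, with bars for the 95% interval, in CC and CB. All points are open, since none passed an adjusted p of 0.05, and the bars of Hdac3, Eed and Tet2 in CC leave out 0.

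Per kilobase of exon, Dnmt1 was the highest and Tet2 the lowest of the 10 genes in all 4 groups. Dnmt1 averaged 113 CPM per kilobase in Smarca4+/- CC, 94.6 in Smarca4+/+ CC, 180.0 in Smarca4+/- CB and 180.5 in Smarca4+/+ CB, and Tet2 averaged 2.82, 5.54, 1.12 and 1.22 CPM per kilobase in the same groups. In Smarca4+/+ CB the order below Dnmt1 was Suz12 (54.8), Kmt2d (46.1), Ep300 (37.0), Crebbp (32.4), Ezh2 (28.8), Eed (19.8), Hdac3 (15.2) and Kdm1a (14.6), and only Hdac3 and Kdm1a overlapped. In Smarca4+/- CB the order was the same but for Ezh2 (32.1) and Crebbp (29.6), and the libraries of Kmt2d, Ep300, Ezh2 and Crebbp overlapped from neighbour to neighbour. In Smarca4+/+ CC Kmt2d (39.1), Suz12 (29.3) and Ep300 (28.9) overlapped from neighbour to neighbour, and Ezh2 (14.1), Eed (11.7), Kdm1a (7.92), Hdac3 (7.21) and Tet2 (5.54) also overlapped from neighbour to neighbour. In Smarca4+/- CC Suz12 (41.3) and Kmt2d (38.7) were separate from all others, the libraries of Ep300 (25.4) lay within the range of Eed, and Crebbp (22.5), Eed (22.2), Ezh2 (20.2), Hdac3 (18.1) and Kdm1a (12.3) overlapped from neighbour to neighbour.

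**Figure D5:**
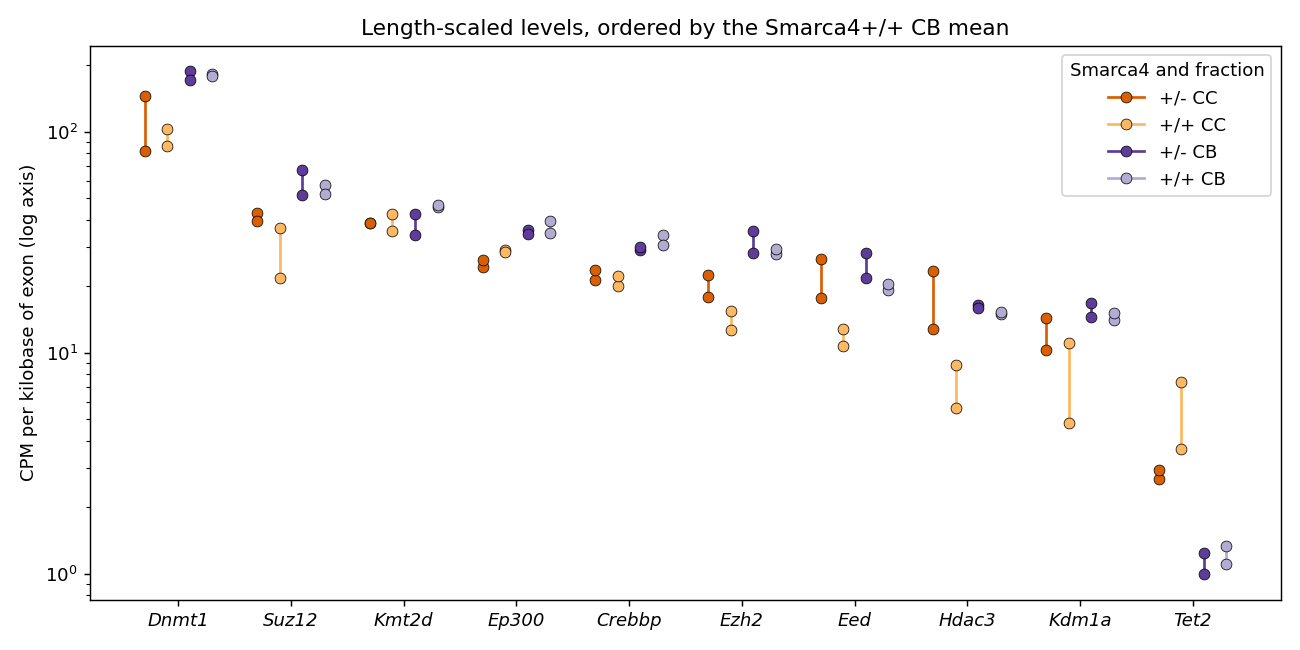
CPM per kilobase of exon (vertical log axis) of the 10 genes, ordered by their Smarca4+/+ CB mean, with 2 points joined by a line for the 2 libraries of each group. Dnmt1 is the highest and Tet2 the lowest gene in every group, and several neighbours between them overlap in CC.

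Across the 8 libraries, the genes whose log2 CPM followed the members most closely were sought among 2472 genes with at least 50 counts on average in CC, a minimum that Eed, Kdm1a, Hdac3 and Tet2 did not reach. Libraries of 1 fraction share their depth range, and the Pearson correlations are given as descriptions. Ezh2 was most like Kif11 (0.994), a spindle motor, Gna13 (0.990) and Hmgb2 (0.988). Dnmt1 was most like Cenpe (0.995) and Bub1b (0.995), both of the kinetochore, and Srsf4 (0.993). Suz12 was most like Hnrnpl (0.985), Kif15 (0.978) and Arhgap11a (0.978). Ep300 was most like the SWI/SNF gene Arid1a (0.967), the histone gene H3f3b (0.967) and Smarca4 itself (0.964). Crebbp was most like Pdzd2 (0.980), Gtf3c1 (0.978) and Acin1 (0.978), and Kmt2d, which had the smallest fold change between fractions, was most like Mast3 (0.901), Itpkb (0.864) and Zfp608 (0.843).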

How the data were processed

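The deposited table holds raw counts of reads per gene, made by the authors from ribosomal RNA depleted total RNA libraries of cells isolated with a PNA bead kit, per the labels' protocols. The submitters' processing notes name FastQC, STAR, featureCounts, Subread, R 4.2.1 and the build mm10. No source used here gives aligner versions, the strand setting or the handling of multiply mapped reads. The deposited table's other column, gene length in bases, was used for levels per kilobase. Of 55421 identifiers 54587 matched GENCODE M21 with their version and 55154 had a symbol.

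Counts were fitted in R 4.3.3 with edgeR 4.0.16 (limma 3.58.1): filterByExpr with a minimum count of 10 and a minimum total of 15 left 12997 genes, libraries were TMM scaled, and a quasi-likelihood model with 1 mean for each group used all 8 libraries together, which leaves 4 residual degrees of freedom. The tests were CC against CB in each genotype, Smarca4+/- against Smarca4+/+ in each fraction, and the interaction, all 2-sided, with Benjamini-Hochberg adjustment over all genes at 0.05. SE is the log2 fold change over the root of F, and intervals use the t quantile. CPM values are TMM scaled. The script was also run on simulated counts with known changes and the same dispersion for all genes and libraries. That run checks the code and does not bear on the results given here. Alternatives were DESeq2 1.42.0, RLE scaling, scaling by total count, tests without a low count filter, a replicate block, only the groups compared, CB thinned to the mean CC total, and each library left out. The thinning was a single random draw of the CB counts. Tables and figures were made with Python 3.11.15, pandas 2.3.3, numpy 2.4.6 and matplotlib 3.10.9. Named besides the 10 genes were up to 3 called genes with the smallest p for each list, comparison and direction, set paralogues, Smarca4 and Mki67, and the 3 genes most alike to each member. The members and the gene lists were chosen with earlier results of these data known.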

Additional observations from a re-analysis of the deposited data

How the results depend on the processing

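Of the 10 genes, 3 were called between CC and CB in Smarca4+/+, and the count moved with the setting: 1 with total count scaling (Tet2), 1 when only the 2 groups were fitted (Dnmt1), 2 with RLE scaling (Ezh2 and Tet2), 2 with CB thinned (Tet2 and Dnmt1), 5 when low genes were kept and 5 with DESeq2 (Crebbp and Suz12 added in both), and 0 to 4 with 1 library left out. In Smarca4+/- 0 were called, against 1 without the filter (Dnmt1), 2 with DESeq2 (Ep300 and Tet2) and 0 to 1 with 1 library left out. Between genotypes in CC 0 were called, against 1 with DESeq2 (Hdac3). The other settings left the counts of calls at 0 for both genotype comparisons and the interaction. Thinning and left-out libraries reduce the counts or libraries tested; otherwise the cause was not tested.

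The equal replicate numbers of different groups were not shown to pair the samples: over 2493 genes the deviations from the group means correlated at 0.0626 between Smarca4+/- and Smarca4+/+ CC, -0.114 between Smarca4+/- and Smarca4+/+ CB, 0.134 between CC and CB of Smarca4+/- and 0.0691 of Smarca4+/+. With the replicate number as a block, 4 members were called in Smarca4+/+ (Suz12 added, -0.93, adjusted p = 0.031) and 0 in the other comparisons. Of the 19 calls among the other complex genes, the block lost 3: Dnmt3a (1.54, adjusted p = 0.0654), Bmi1 (2.38, adjusted p = 0.0582) and Kat8 (-2.51, adjusted p = 0.0749).

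Directions turned only for values that were not called. CC over CB in Smarca4+/-, Kmt2d was -0.0187 without the filter and ranged over left-out libraries from -0.0738 to 0.228, Eed from -0.525 to 0.0873 and Hdac3 from -0.359 to 0.512. Smarca4+/- over Smarca4+/+ in CC, Kmt2d was 0.0050 without the filter and ranged from -0.152 to 0.117, and Dnmt1 from -0.228 to 0.61. In CB, Hdac3 was -0.21 and Tet2 0.90 with CB thinned by a single random draw, and Dnmt1 was 0.070 with total counts and 0.0049 without the filter. Over left-out libraries in CB, Ep300 ranged from -0.177 to 0.0281, Ezh2 from -0.0205 to 0.314, Suz12 from -0.0853 to 0.301, Kdm1a from -0.00338 to 0.215, Tet2 from -0.293 to 0.0239 and Dnmt1 from -0.0673 to 0.0628. The interaction of Dnmt1 ranged from -0.229 to 0.609. The cause was not tested. Over all genes, the numbers higher and lower in Smarca4+/+ CC were 484 and 489, against 541 and 367 with RLE scaling, 567 and 290 with total counts, 1196 and 851 with DESeq2 and 802 and 849 without the filter. In Smarca4+/- CC they were 282 and 195, against 305 and 122 with RLE scaling and 326 and 99 with total counts. Without a Smarca4+/+ CB library the Smarca4+/+ numbers were 103 and 117 (replicate 1) or 138 and 88 (replicate 2), and without a Smarca4+/- CB library 245 and 195 or 237 and 197 in the same order. The depth of CC, with 14 to 904 counts a member, and 2 libraries a group limit every comparison. The other complex genes named were put through the same settings, a choice made after the data were seen.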

Other observations

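Dnmt3b, Kdm5b and Kat2b, genes of the complexes around the members, had wide genotype separations in CC and were picked after their values were seen. Dnmt3b, a de novo DNA methyltransferase, had 5.33 and 7.10 CPM in Smarca4+/- CC, against 39.2 and 39.1 CPM in Smarca4+/+ CC, with 5.42 and 3.59 CPM in Smarca4+/- CB and 5.88 and 4.80 CPM in Smarca4+/+ CB. The CC values of Dnmt3b rest on 4 and 6 counts in Smarca4+/-, close to the detection limit of 3 counts, and on 22 and 24 counts in Smarca4+/+. The difference in CC was -2.65 on the log2 scale (edgeR adjusted p = 0.154, and 0.0895 to 0.814 over the other edgeR settings), and DESeq2 called it (adjusted p = 0.00275). Kdm5b differed by -1.97 (edgeR adjusted p = 0.168, and 0.0910 to 0.814 over the other edgeR settings; DESeq2 adjusted p = 0.00157). The CC values of Kdm5b rest on 12 and 10 counts in Smarca4+/- and on 28 and 36 counts in Smarca4+/+. Kat2b differed by 3.21 (edgeR adjusted p = 0.114, DESeq2 adjusted p = 0.000331), on 35 and 40 counts in Smarca4+/- CC against 0 and 6 counts in Smarca4+/+ CC. It differed by 2.25 without Smarca4+/+ CC replicate 1 and by 12.1 without replicate 2, where the remaining library is at 0 and the value depends on the prior count. Without the low count filter edgeR called Kat2b (adjusted p = 0.00126), and over the other edgeR settings its adjusted p was 0.0642 to 0.814. T cell and erythroid markers were also lower in Smarca4+/- CC, with summed T cell levels of 268 and 74.5 CPM in Smarca4+/- CC against 558 and 631 CPM in Smarca4+/+ CC, and median log2 fold changes of -1.88 over T cell and -1.33 over erythroid markers. Their part in the differences of Dnmt3b and Kdm5b was not tested. Only 2 libraries a group bear on each of these values.

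The zone marker lists differed between the fractions in the direction that the labels name. The dark zone list holds Cxcr4, and the light zone list Cd83 and Cd86. The labels do not give which markers separated CC and CB, so the lists are not shown to be an independent check. Macrophage and T cell sums were also higher in CC. The part of sorting and of these cells was not tested. Of all 12997 genes, 195 were called lower in Smarca4+/- CC and 489 in Smarca4+/+ CC. Called higher were 282 and 484 in that order. The 6 dark zone markers summed to 858 and 1276 CPM in Smarca4+/- CC, 1136 and 1083 CPM in Smarca4+/+ CC, 3085 and 2810.1 CPM in Smarca4+/- CB, and 2645 and 2759 CPM in Smarca4+/+ CB, with 5 of 6 called lower in Smarca4+/- CC and 6 of 6 in Smarca4+/+ CC. The 8 light zone markers summed to 1258 and 1294 CPM in Smarca4+/- CC, 1016 and 1396 CPM in Smarca4+/+ CC, 384 and 418 CPM in Smarca4+/- CB, and 503 and 457 CPM in Smarca4+/+ CB, with 7 of 8 called higher in Smarca4+/- CC and 5 of 8 in Smarca4+/+ CC.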
